A study of Homo sapiens with 9 samples.

Results

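The 10 genes described here encode the core of the human Hippo pathway: the kinases STK3, STK4, LATS1 and LATS2, the adaptors SAV1, MOB1A and MOB1B, and the upstream activators NF2, WWC1 and TAOK1. They were taken by gene symbol, with no use of measured values, from a table of 19930 genes, and each of the 10 had exactly 1 line there. All 10 also passed the filter on low values, a mean of 1 FPKM or more (a fragment count scaled to transcript length and library size) over the 9 libraries, which 12884 genes passed. RNA of cells labelled MDA-MB-453, an established human breast cancer line, was sequenced 48 h after transfection with a lipid reagent. Of the 3 groups of 3 libraries, X453_1 and X453_2 carried the label Linc00673 knockdown and X453_NC was the control. LINC00673 is a long noncoding RNA, and the study asked whether it acts through the Hippo pathway, so the comparisons ask whether the transcripts of the pathway's core differed when it was targeted. All cells were of 1 line at 1 time point and were transiently transfected. LINC00673 itself was not analysed here, so the knockdown was not checked in these libraries.

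The Hippo pathway restrains cell growth through a chain of kinases. STK3 and STK4 (also called MST2 and MST1), bound to the scaffold SAV1, phosphorylate LATS1 and LATS2 and their cofactors MOB1A and MOB1B. TAO kinases such as TAOK1 phosphorylate STK3 and STK4, while NF2 (merlin) and WWC1 (KIBRA) bring the kinases to the membrane. LATS kinases then phosphorylate the coactivators YAP1 and TAZ (encoded by WWTR1), which keeps them from entering the nucleus and activating TEAD transcription factors. In breast epithelium this chain is known for limiting proliferation when cells touch each other. It works largely by phosphorylation, which mRNA levels do not measure.

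Small RNAs can lower other transcripts through their seed, bases 2 to 8, so the antisense strands of the study's siRNAs are shown together with miR-515-5p, a microRNA that the study examined together with LINC00673. Seeds are in capitals, and the sequence of miR-515-5p is that of RefSeq (GRCh38.p14). The libraries' labels do not name the siRNAs, and only the shared numbers 1 and 2 connect them to the groups.
siRNA1 antisense strand: aGAAACCUcugauuccacctt
siRNA2 antisense strand: uUAUUAUUugagacagggucu
control siRNA antisense strand: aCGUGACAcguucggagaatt
miR-515-5p: uUCUCCAAaagaaagcacuuucug
No seed was shared between these 4. The target of siRNA1 (19 bases) lay across an exon junction, between chr17:72428281 and chr17:72431128 on the minus strand of GRCh38 in 38 GENCODE transcripts. The target of siRNA2 (21 bases) lay in an exon at chr17:72404374-72404394 on the same strand, and the same 21 bases occurred in 1 transcript of AC093525.9 at chr16:2576479-2576499 (minus strand). GENCODE release 29 assigns both chromosome 17 targets to the gene model LINC00511, while both positions are inside the RefSeq gene LINC00673 (chr17:72403322-72592804). The control siRNA matched no transcript over its full length. In the transcripts of the 10 Hippo genes, the longest match counted from the 5′ end of an siRNA antisense strand was 9 bases.

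Matches to the 4 seeds were counted in the 3′ untranslated regions of the 10 genes, which are long: they ran from 1147 bases (STK3) to 8882 bases (TAOK1), against a median of 1179 bases over the 11114 genes searched. The siRNA1 site AGGTTTC was present in 6 of 10 genes, against 20.35% of the 5504 genes between the shortest and longest of these lengths. The siRNA2 site AATAATA was present in 4 of 10 genes, against 31.92% of those genes. The miR-515-5p site TTGGAGA was found in 3 of 10 genes, against 28.12%, and the control siRNA site TGTCACG in 2 of 10, against 4.38%. Over all 11114 genes the shares were 12.56%, 20.2%, 17.48% and 2.97% in the same order. The range starts near the median of all genes, and most of the 10 genes lay far above its start. These shares are thus not matched for length. WWC1 held 4 siRNA2 sites, of which 3 overlapped in 1 run of AAT repeats. The 3 sites of miR-515-5p are printed because the study's hypothesis runs through that microRNA, and 2 of the WWC1 sites because WWC1 differed between the knockdown groups. Sites are in capitals and coordinates are those of GRCh38.
LATS1, miR-515-5p site, chr6:149660315-149660343, minus strand: ttgcagttgaaTTGGAGAgttagggcaaa
NF2, miR-515-5p site, chr22:29696471-29696499, plus strand: cctcaagatttTTGGAGAgcagaggtggt
TAOK1, miR-515-5p site, chr17:29547472-29547500, plus strand: taactttttccTTGGAGAtttatatggtc
WWC1, isolated siRNA2 site, chr5:168469238-168469266, plus strand: accagcattaaAATAATAagattgtatag
WWC1, repeated siRNA2 site, chr5:168470820-168470848, plus strand: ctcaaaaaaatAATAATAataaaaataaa
A match of letters is a description and does not show that a small RNA acted there.

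YAP1 and TAZ act through TEAD factors, whose core binding motif is GGAATG. The motif was searched on both strands of RefSeq promoters (250 bases before to 50 bases after each start, GRCh38.p14), of which 9 of the 10 genes had an entry. It was present in the promoter of LATS2 alone. This 1 of 9 genes is near the share over all tested genes, 11.21% of 13092 promoters, where a gene can have several promoters. LATS2 is known as a target of YAP1 in negative feedback, and its motif began 9 bases downstream of the start.
LATS2 promoter, chr13:21061560-21061589, minus strand, motif in capitals: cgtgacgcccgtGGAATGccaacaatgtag

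The estimated depth of the libraries was 23500000 to 27900000 fragments, and replicates of a group correlated with each other at r = 0.9945 to 0.9959 across genes, against 0.9552 to 0.9903 between groups. For the 10 genes this depth came to between 375 fragments (LATS2) and 5215 fragments (STK4) per library, and counting error alone gave an SD of at most 5.16%. Epithelial markers were abundant, with KRT8 at 3011 to 3773 FPKM and EPCAM at 287.29 to 329.59 FPKM. FOXA1, a luminal factor known to be expressed in MDA-MB-453, was listed at 0 to 0.04 FPKM, and GATA3 at 0.41 to 0.88 FPKM, while ERBB2 reached 11.79 to 17.82 FPKM and FGFR4 17.89 to 33.05 FPKM. The level of FOXA1 goes against the label of the line, and the libraries are therefore called by their label only. Of 4 markers of other cell types, the leukocyte marker PTPRC stayed at 0 to 0.07 FPKM and the endothelial marker PECAM1 at 0.07 to 0.12 FPKM. The sum of the 4, nearly all from CD68 and COL1A1, was 36.81 to 38.24 FPKM in X453_NC, 51.86 to 55.46 in X453_1 and 61.04 to 66.30 in X453_2. Its part in the differences below was not tested.

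In the control libraries the 10 genes spanned an 8.757-fold range of FPKM, a scale that is divided by transcript length. STK4 was highest (mean 24.96 FPKM, SD 1.16, n = 3) and was higher than 77.41% of tested genes. It was followed by MOB1A (22.4), SAV1 (12.4), TAOK1 (8.04), LATS1 (6.20), STK3 (5.77), MOB1B (5.35), WWC1 (4.68), NF2 (4.47) and LATS2 (2.85). The median of tested genes was 9.32 FPKM, so only STK4, MOB1A and SAV1 were above it. In 7 of the 9 neighbouring pairs of this order the control libraries did not overlap, the exceptions being STK3 with MOB1B and WWC1 with NF2. Each gene varied little between libraries of a group, with a coefficient of variation from 0.571% (STK4 in X453_1) to 8.16% (TAOK1 in X453_NC).

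**Figure D1:**
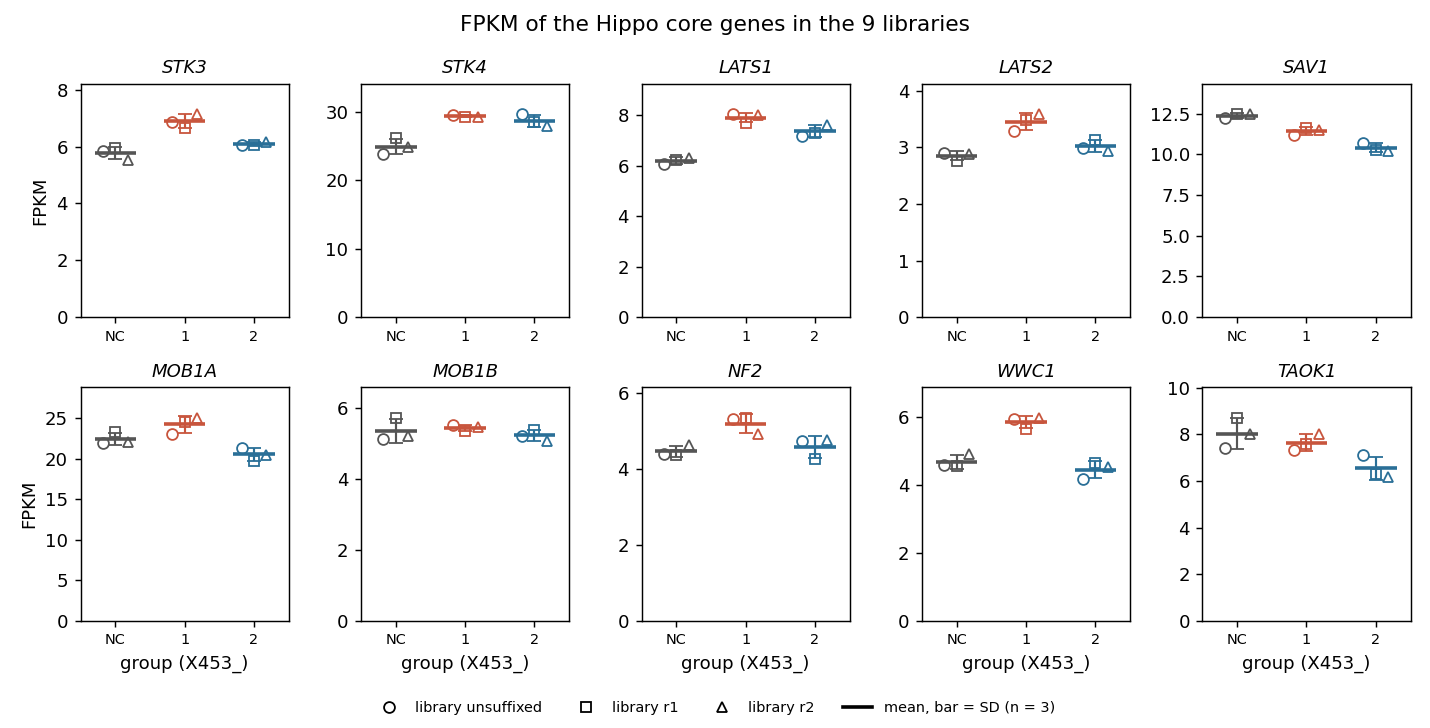
FPKM of each of the 10 genes (vertical axes, each starting at 0) in the libraries of X453_NC, X453_1 and X453_2 (horizontal axes). Each symbol is 1 library, lines are means and bars are SD (n = 3). LATS1, STK4, STK3 and LATS2 are higher in both knockdown groups than in every control library, the last 2 only narrowly in X453_2, and SAV1 is lower.

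None of the 10 genes met the study's criteria for differential expression, a fold change of at least 1.3 with an unadjusted P of at most 0.05 (limma on log2(FPKM + 1)), in any comparison. The added 1 FPKM shrinks fold changes of low genes. For WWC1 the ratio of mean FPKM in X453_2 to that in X453_1 was 0.7597, which is beyond 1.3-fold. The same criteria were met by 26.7% of tested genes for X453_1 against X453_NC, by 34% for X453_2 against X453_NC and by 7.64% for X453_2 against X453_1. With P alone, 8, 5 and 8 of the 10 genes had an unadjusted P of at most 0.05 in these comparisons. The share of all tested genes at that unadjusted P is not given here. By adjusted P with no fold limit, a stricter rule on P, most tested genes were called in both comparisons with X453_NC, as the shares below show. Many of the differences thus exceeded the spread of replicates, as did those of many tested genes, but none was larger than 0.33 on the log2 scale. For single genes, higher and lower refer to limma's P after Benjamini-Hochberg adjustment, at 0.05 or less, with no limit on the fold. By that rule 6 of 10 genes were higher and 1 lower in X453_1 than in X453_NC, against 32.1% and 32.3% of tested genes. For X453_2 against X453_NC the counts were 2 higher and 3 lower, against 26% and 44.8%. For X453_2 against X453_1 none was higher (unadjusted P of at most 0.05 also 0) and 7 were lower, against 10.2% and 33.9%. The median log2 fold change of the 10 genes was 0.19, 0.0015 and -0.15 in the 3 comparisons, beside 0.0032, -0.10 and -0.08 over all 12884 genes. Both comparisons with X453_NC share its 3 libraries.

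**Figure D2:**
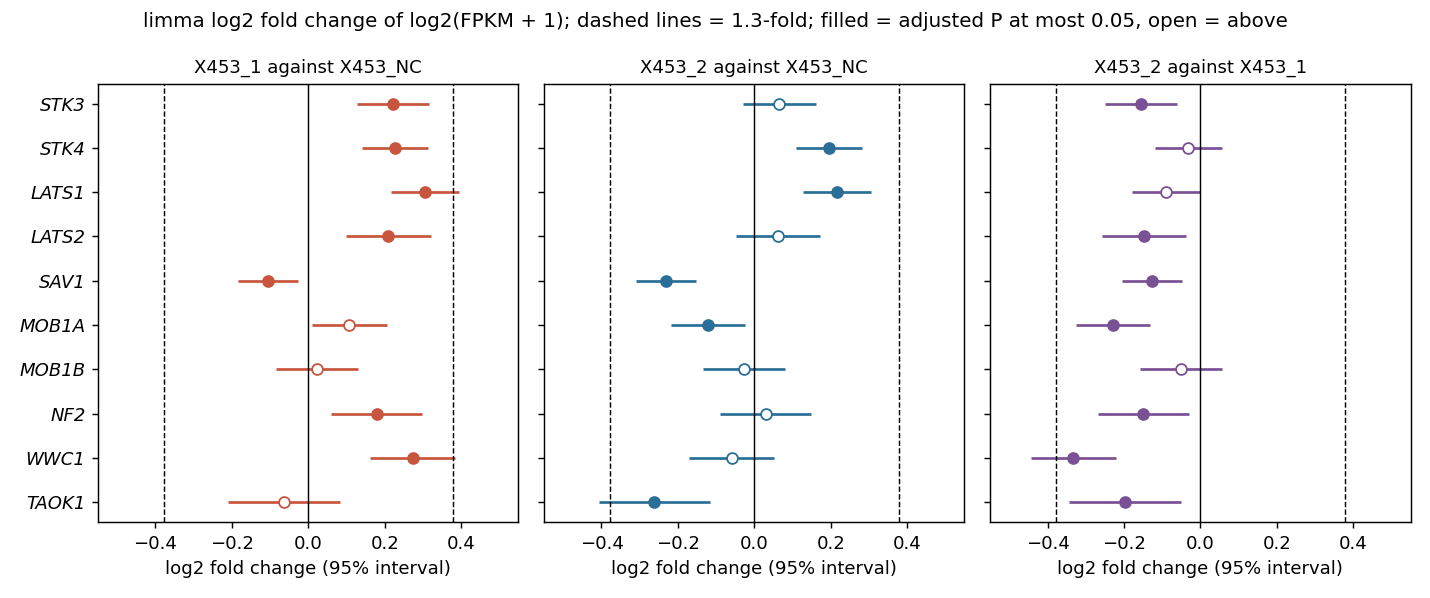
Log2 fold change on the log2(FPKM + 1) scale (horizontal axes) with 95% interval for the 10 genes in 3 comparisons. Filled points have an adjusted P of at most 0.05, open points do not, and dashed lines mark 1.3-fold. Every point lies between the dashed lines, and the largest difference is that of WWC1 between the knockdown groups.

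The MST kinases were higher in X453_1, and STK4 also in X453_2. STK4, on chr20:43595115-43708618 (GRCh37, as all gene positions below, plus strand), measured 23.83, 26.15 and 24.89 FPKM in X453_NC. It reached 29.57, 29.29 and 29.27 FPKM in X453_1 and 29.70, 28.48 and 28.02 FPKM in X453_2. Every knockdown library was thus above every control library, while the knockdown groups overlapped. The log2 fold change of STK4 was 0.23 (SE 0.0387, adjusted P = 5.28e-04) in X453_1 and 0.20 (SE 0.0387, adjusted P = 0.00115) in X453_2, and the difference between the knockdown groups did not pass the test (-0.03, 95% interval -0.12 to 0.06, adjusted P = 0.538). In a bulk sample, a different amount of RNA per cell and a different share of cells that express the gene cannot be told apart for this or any later difference.

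STK3, on chr8:99466859-99954799 (minus strand), was far less abundant than STK4. Its values were 5.84, 5.94 and 5.52 FPKM in X453_NC, 6.87, 6.66 and 7.14 in X453_1, and 6.04, 6.05 and 6.15 in X453_2. The 3 groups did not overlap, and X453_2 lay closest to the control. The log2 fold change was 0.22 (adjusted P = 0.00113) in X453_1, against 0.07 (95% interval -0.03 to 0.16, adjusted P = 0.189) in X453_2. STK3 was lower in X453_2 than in X453_1 by limma (-0.16, adjusted P = 0.0145), a call that ended when replicate r2 of X453_1 was left out (-0.13, adjusted P = 0.0588).

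LATS1 was higher in both knockdown groups, and on the deposited scale in X453_1 its log2 fold change exceeded those of the other 9 genes (after GC correction those of WWC1 and NF2, 0.26 and 0.20, were above its 0.19). This kinase, which directly phosphorylates YAP1 and TAZ, is encoded on chr6:149979289-150039392 (minus strand). It was at 6.05, 6.23 and 6.32 FPKM in X453_NC, 8.04, 7.68 and 7.99 in X453_1, and 7.17, 7.30 and 7.62 in X453_2. The 3 groups were fully separated, in the order X453_NC, X453_2, X453_1. The log2 fold change was 0.31 (SE 0.0399, adjusted P = 9.22e-05) in X453_1 and 0.22 (SE 0.0399, adjusted P = 7.63e-04) in X453_2, with no call between the knockdown groups (-0.09, 95% interval -0.18 to 0.00, adjusted P = 0.0928). The ratio of mean FPKM to that of the control was 1.275 in X453_1 and 1.188 in X453_2.

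LATS2, on chr13:21547175-21635722 (minus strand), was the lowest of the 10 genes. It measured 2.91, 2.76 and 2.88 FPKM in X453_NC, 3.29, 3.48 and 3.59 in X453_1, and 2.99, 3.14 and 2.93 in X453_2. The X453_1 libraries lay above all others, and those of X453_2 only just above the control. The log2 fold change was 0.21 (adjusted P = 0.00399) in X453_1 and 0.06 (adjusted P = 0.282) in X453_2. Between the knockdown groups it was -0.15 (adjusted P = 0.0352). That call ended in each of 5 fits with 1 library left out, at adjusted P = 0.0869 and 0.117 without X453_1 r1 and r2, 0.0739 and 0.1 without the unsuffixed X453_2 library and X453_2 r2, and 0.0516 without X453_NC r2.

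SAV1 was the only gene of the 10 that was lower in both knockdown groups. This scaffold of STK3 and STK4, on chr14:51100298-51135071 (minus strand), was at 12.21, 12.48 and 12.47 FPKM in X453_NC. It measured 11.19, 11.65 and 11.50 FPKM in X453_1 and 10.72, 10.28 and 10.20 FPKM in X453_2. The groups formed 3 separate steps downward, opposite to the direction of its partner STK4. The log2 fold change was -0.23 (SE 0.0352, adjusted P = 2.03e-04) in X453_2. It was -0.11 (SE 0.0352, adjusted P = 0.0238) in X453_1, where leaving out the unsuffixed X453_1 library, X453_1 r2, X453_NC r1 or X453_NC r2 gave adjusted P = 0.0852, 0.0526, 0.0557 and 0.0696. SAV1 was lower in X453_2 than in X453_1 (-0.13, adjusted P = 0.0158). That call ended without X453_1 r1 (adjusted P = 0.0574), X453_2 r1 (0.0526) or X453_2 r2 (0.0531).

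The MOB1 proteins, which bind LATS kinases and help to activate them, differed from each other. MOB1A, on chr2:74379725-74406094 (minus strand), was at 21.92, 23.22 and 21.98 FPKM in X453_NC, 23.06, 24.51 and 25.01 in X453_1, and 21.35, 19.72 and 20.44 in X453_2. X453_1 overlapped the control, and X453_2 was below both. MOB1A was lower in X453_2 than in X453_1 (-0.23, SE 0.0434, adjusted P = 0.00252) in every alternative tried. Against the control it was lower in X453_2 (-0.12, adjusted P = 0.0299), but not without X453_2 r1 (adjusted P = 0.11), X453_2 r2 (0.0659) or X453_NC r1 (0.1). In X453_1 its log2 fold change was 0.11 (adjusted P = 0.0509), and leaving out the unsuffixed X453_1 library, the unsuffixed X453_2 library or X453_NC r1 made it a call (adjusted P = 0.0248, 0.0395 and 0.0323).

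MOB1B, on chr4:71768057-71853891 (plus strand), did not pass the test in any comparison. It measured 5.11, 5.72 and 5.21 FPKM in X453_NC, 5.51, 5.35 and 5.47 in X453_1, and 5.20, 5.39 and 5.08 in X453_2. The 3 groups overlapped. The 95% interval of its log2 fold change was -0.08 to 0.13 in X453_1 and -0.13 to 0.08 in X453_2, so that a difference of 1.3-fold lay outside both.

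WWC1 differed most between the knockdown groups. The gene, on chr5:167719065-167899308 (plus strand), encodes KIBRA, which binds NF2 and LATS kinases. It was at 4.58, 4.56 and 4.91 FPKM in X453_NC, 5.96, 5.66 and 5.98 in X453_1, and 4.19, 4.65 and 4.53 in X453_2. Only the X453_1 libraries stood apart. The log2 fold change was 0.27 (SE 0.0495, adjusted P = 7.94e-04) in X453_1 and -0.06 (95% interval -0.17 to 0.05, adjusted P = 0.307) in X453_2, and the difference between the knockdown groups was -0.33 (SE 0.0495, adjusted P = 6.88e-04). With 0.1 FPKM added in place of 1 that difference was -0.39 and met the study's criteria. WWC1 carried 4 siRNA2 sites and no siRNA1 site. STK4, with 1 siRNA2 site, was higher in X453_2 than in the control, and TAOK1, with 2, was lower, while MOB1B, with 1, passed the test in no comparison. The siRNA1 sites lay in STK4, LATS1 and NF2, which were higher in X453_1 than in the control. They also lay in MOB1A, MOB1B and TAOK1, which were not called in X453_1. Control siRNA sites lay in LATS2 and NF2, both higher in X453_1 than in the control and not called in X453_2. The part of all these sites was not tested.

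NF2, on chr22:29999545-30094589 (plus strand), is a tumour suppressor that recruits LATS kinases to the membrane. It measured 4.40, 4.38 and 4.64 FPKM in X453_NC, 5.33, 5.35 and 4.92 in X453_1, and 4.75, 4.26 and 4.77 in X453_2. X453_1 lay above both other groups, which overlapped. NF2 was higher in X453_1 (0.18, SE 0.0531, adjusted P = 0.0134), while X453_2 gave 0.03 (adjusted P = 0.627). The difference between the knockdown groups (-0.15, adjusted P = 0.0445) was close to the threshold, and in 7 of the 9 fits that left out 1 library its adjusted P was 0.0516 to 0.158. The exceptions were the fits without X453_1 r2 and without the unsuffixed X453_2 library.

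TAOK1, on chr17:27717943-27878921 (plus strand), was lower in X453_2, where the kinase STK4 that it activates was higher. Its values were 7.40, 8.71 and 8 FPKM in X453_NC, 7.31, 7.58 and 8.03 in X453_1, and 7.10, 6.32 and 6.19 in X453_2. X453_2 lay below all other libraries. TAOK1 was lower in X453_2 than in the control (-0.26, SE 0.0655, adjusted P = 0.00491). In X453_1 it gave -0.06 (95% interval -0.21 to 0.08, adjusted P = 0.422). It was also lower in X453_2 than in X453_1 (-0.20, adjusted P = 0.0333), but not without X453_1 r1 (adjusted P = 0.0703), X453_1 r2 (0.11), X453_2 r1 (0.0968) or X453_2 r2 (0.107).

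The 10 genes were compared on 3 scales, because a change in the content of the libraries moves every FPKM. Dividing each library by its median ratio to the others raised the median over all 12884 genes by 0.0885 for X453_2 against X453_NC and by 0.0889 for X453_2 against X453_1. It moved the share of lower genes among those meeting the study's criteria from 67.8% to 53.6% and from 71.3% to 39%. On that scale STK3 (0.15, adjusted P = 0.00682) and LATS2 (0.14, adjusted P = 0.0272) were also higher in X453_2 than in the control, and MOB1A was no longer lower (-0.02, adjusted P = 0.656). In X453_1 MOB1A was then higher than in the control (0.11, limma adjusted P = 0.0472). Between the knockdown groups only MOB1A (-0.13, adjusted P = 0.0365) and WWC1 (-0.25, adjusted P = 0.00373) remained lower.

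Fold changes also varied with the GC content of transcripts, here in 5 equal classes of 2238 genes. In the highest GC class the median was -0.297 in X453_1 and -0.345 in X453_2 against X453_NC. In the lowest class it was 0.0806 and -0.0568. Of the 10 genes 5 belonged to the lowest class (MOB1B lowest, at 34.3%) and none in the highest (NF2 was at 56.0%). After correction for GC content LATS1 was higher in both knockdown groups by 0.19 and 0.15, and STK4 by 0.12 in each, while SAV1 was lower (-0.22 and -0.31). STK3 was then higher in X453_1 by 0.11 (adjusted P = 0.0431). MOB1B (-0.11, adjusted P = 0.0323) and TAOK1 (-0.18, adjusted P = 0.00369) then were lower in X453_1 as well, and STK3 no longer differed between the knockdown groups (-0.10, adjusted P = 0.0601). The calls present on all 3 scales were LATS1 and STK4 higher and SAV1 lower in both knockdown groups, STK3, LATS2, NF2 and WWC1 higher in X453_1, TAOK1 lower in X453_2, and MOB1A and WWC1 lower in X453_2 than in X453_1.

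**Figure D3:**
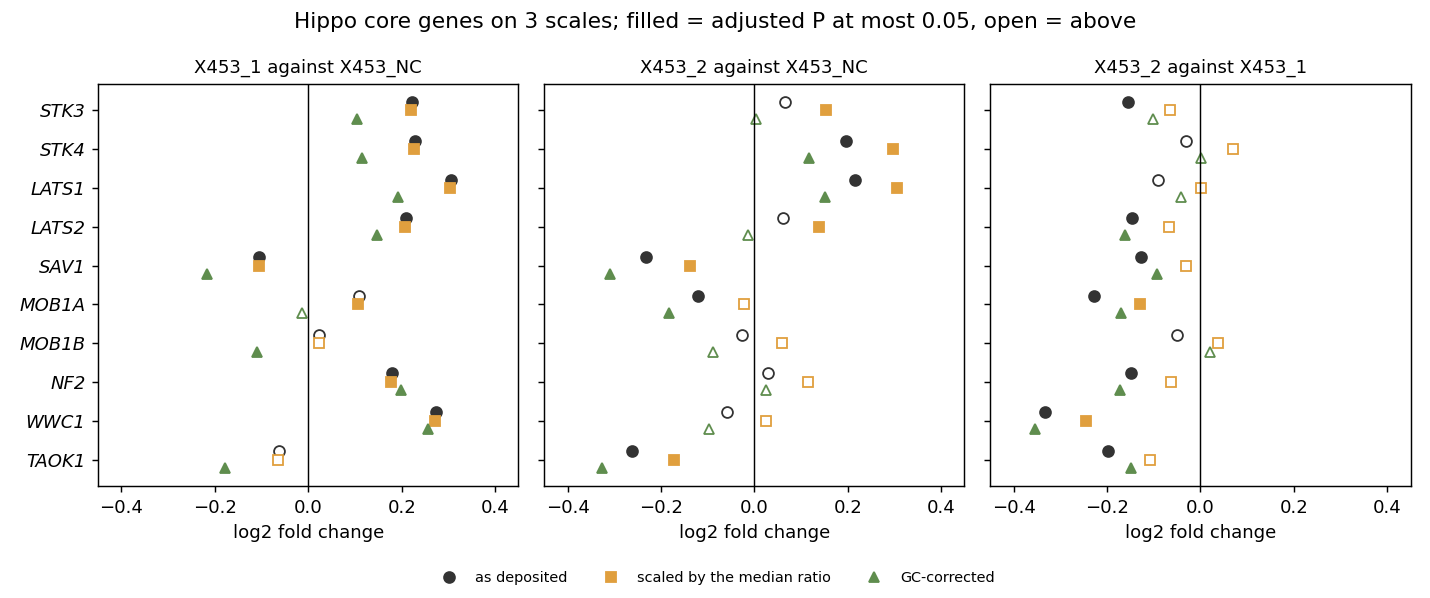
Log2 fold change (horizontal axes) of the 10 genes on 3 scales, as deposited (circles), scaled by the median ratio (squares) and corrected for GC content (triangles). Filled symbols have an adjusted P of at most 0.05 and open symbols do not. LATS1, STK4 and SAV1 are filled on every scale in both comparisons with X453_NC.

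STK3 and STK4, LATS1 and LATS2, and MOB1A and MOB1B are pairs of paralogs with overlapping roles, so the balance within each pair was compared as well. Their transcripts shared no stretch of 100 bases, and a shared stretch of 25 bases occurred at 1 position, between MOB1A and MOB1B. STK4 made up 81.2% ± 0.801 (SD, n = 3) of the summed FPKM of its pair in X453_NC, 81.0% ± 0.556 in X453_1 and 82.5% ± 0.551 in X453_2. LATS2 contributed 31.5% ± 0.904, 30.4% ± 1.19 and 29.1% ± 1.19 of the LATS sum. MOB1B contributed 19.3% ± 0.442, 18.4% ± 0.782 and 20.32% ± 1.01 of the MOB1 sum. None of these shares moved by more than 3 percentage points between groups.

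The log2 ratio of the paralogs was compared between the 6 knockdown and 3 control libraries by an exact two-sided permutation test over 84 relabelings, in which the smallest possible P is 0.0119. The difference was 0.05 for STK4 to STK3 (exact P = 0.429, adjusted over the 3 pairs 0.643), -0.12 for LATS2 to LATS1 (exact P = 0.0952, adjusted 0.286) and 0.00 for MOB1B to MOB1A (exact P = 0.976, adjusted 0.976), so no pair passed the test. In X453_1 and X453_2 the difference from X453_NC was -0.02 and 0.13 for STK4 to STK3, -0.07 and -0.16 for LATS2 to LATS1, and -0.08 and 0.09 for MOB1B to MOB1A. Between the knockdown groups, X453_2 minus X453_1, it was 0.15, -0.09 and 0.18. With 3 libraries against 3 the smallest possible exact P is 0.1, so none of these could pass. That smallest P was reached by the STK and LATS pairs in X453_2 against X453_NC. The STK and MOB1 pairs reached it between the knockdown groups, and the rest gave exact P of 0.2 to 0.7. Since the pooled test averages knockdown groups whose differences had opposite signs for the STK and MOB1 pairs, it does not show an unchanged balance in each group. With 1 FPKM added before the ratio was taken, the LATS pair gave -0.13 (exact P = 0.0357). The STK pair went from 30.7 ± 1.24 FPKM in X453_NC to 36.3 ± 0.275 in X453_1 and 34.8 ± 0.823 in X453_2, and the LATS pair from 9.05 ± 0.131 to 11.4 ± 0.211 and 10.4 ± 0.201 (SD, n = 3). The MOB1 sum was 27.7 ± 1.06, 29.6 ± 0.974 and 25.7 ± 0.742 FPKM. These sums were not tested beyond the genes themselves.

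**Figure D4:**
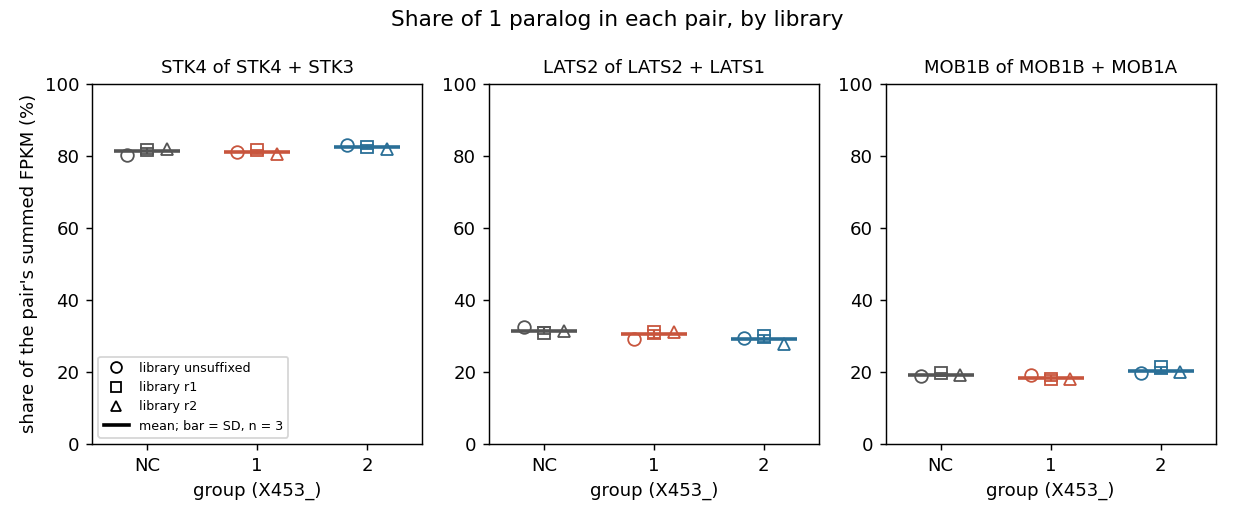
Share of 1 paralog in the summed FPKM of its pair (vertical axes, %, 0 to 100) in each library of X453_NC, X453_1 and X453_2. Symbols are libraries, lines are means and bars are SD (n = 3). STK4 lies between 80.3 and 83.1%, LATS2 between 27.8 and 32.5% and MOB1B between 17.9 and 21.5%.

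Beyond the core, 79 other genes of the pathway were listed in 8 groups by role, of which 78 were in the table and 73 were tested. By the study's criteria 15 were higher and 9 lower in X453_1 than in X453_NC (32.9% called, against 26.7% of all tested genes), and the median of the list's log2 fold changes was 0.11. For X453_2 against X453_NC 14 were higher and 14 lower (38.4% against 34%, median 0.03). For X453_2 against X453_1 1 was higher and 3 lower (5.48% against 7.64%, of which 2.19% higher and 5.45% lower, median -0.12). The last count ranged from 2 without X453_1 r2 to 10 without the unsuffixed X453_2 library. The genes named next were those past the criteria in the same direction in both knockdown groups, up to 3 per group of genes, and both comparisons share the control libraries. Their values, and those of YAP1, are on the deposited scale only. Some lay close to the log2 limit of 0.3785, such as SCRIB in X453_2 (-0.39). Scaling by the median ratio raised the median over all genes by 0.0885 for X453_2 against X453_NC.

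Among the effectors, on which the kinase chain acts, WWTR1 (TAZ) was higher by 0.90 (SE 0.0406) in X453_1 and 0.82 (SE 0.0406) in X453_2, at 5.27 to 5.63 FPKM in X453_NC and 9.97 to 11.18 FPKM in the knockdown libraries. TEAD3 was lower (-0.69 and -0.68). Of 7 effectors tested, 1 was higher and 2 lower in X453_1, and 1 was higher and 1 lower in X453_2 (42.9% and 28.6% called, against 26.7% and 34% of all tested genes). YAP1, which was added although it did not meet that rule, measured 41.26 to 44.67 FPKM in X453_NC and did not meet the criteria. By adjusted P with no fold limit it was lower in X453_2 (-0.28, adjusted P = 2.30e-04), where its 33.86 to 37.34 FPKM were below every control library, and not called in X453_1 (-0.09, adjusted P = 0.104).

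Of the parallel kinases and their MOB partner, none of 12 was higher in either group, while 3 were lower in X453_1 and 5 in X453_2 (25% and 41.7%, where 15.6% and 23.1% of all tested genes were lower). At an adjusted P of at most 0.05 with no fold limit 2 and 1 were higher. STK25 (-0.76 and -0.84) and MOB2 (-0.92 and -0.67), a partner of the LATS-related kinases STK38 and STK38L, had the largest differences. TAOK2, the paralog of TAOK1, was lower (-0.40 and -0.67).

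STRIPAK, a phosphatase complex that removes phosphate from STK3 and STK4, had 5 of 15 genes higher and none lower in X453_1 (2 lower at an adjusted P of at most 0.05 with no fold limit), and 4 higher and 1 lower in X453_2. The share called in either direction was 33.3% in each group, against 26.7% and 34% of all tested genes. Among all tested genes 11.1% and 11% were higher, and 15.6% and 23.1% were lower. The named genes of STRIPAK were STRIP2 (0.51 and 0.49), CTTNBP2NL (0.59 and 0.40) and the catalytic subunit gene PPP2CB (0.42 and 0.52). Of 10 genes for YAP turnover and 14-3-3 proteins, which hold phosphorylated YAP1 in the cytoplasm, 4 were higher in each group (40%, where 11.1% and 11% of all tested genes were higher), with YWHAG at 0.80 and 0.87 and YWHAQ at 0.40 and 0.39. In that list none was lower in X453_1 by either rule, and 1 was lower in X453_2.

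DCAF1, a ubiquitin ligase receptor that acts on LATS kinases, had the largest difference among the named genes. It was at 1.93 to 3.23 FPKM in X453_NC, 7.34 to 7.87 in X453_1 and 7.81 to 9.11 in X453_2 (log2 fold change 1.29 and 1.42, SE 0.112). Of the 5 ubiquitin ligases tested, 1 was higher in X453_1, and 2 were higher and 1 lower in X453_2 (20% and 60% called, against 26.7% and 34% of all tested genes). AJUBA, a LIM-domain inhibitor of LATS kinases, was lower (-0.62 and -0.80), and the second LIM-domain gene tested met the criteria in neither comparison. RASSF5 was higher (0.67 and 0.43), as was the angiomotin gene AMOT (0.67 and 0.45), which binds YAP1, while the polarity gene SCRIB was lower (-0.49 and -0.39). Of 5 RASSF genes tested, 1 was higher in X453_1, and 2 were higher and 1 lower in X453_2 (20% and 60% called). Of 17 junction and polarity genes, 3 were higher and 3 lower in X453_1 (35.3% called). In X453_2 1 of them was higher and 3 were lower (23.5% called). Among all tested genes 26.7% and 34% were called. Adjusted P was at most 0.00845 for each of these named genes in both comparisons (limma).

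**Figure D5:**
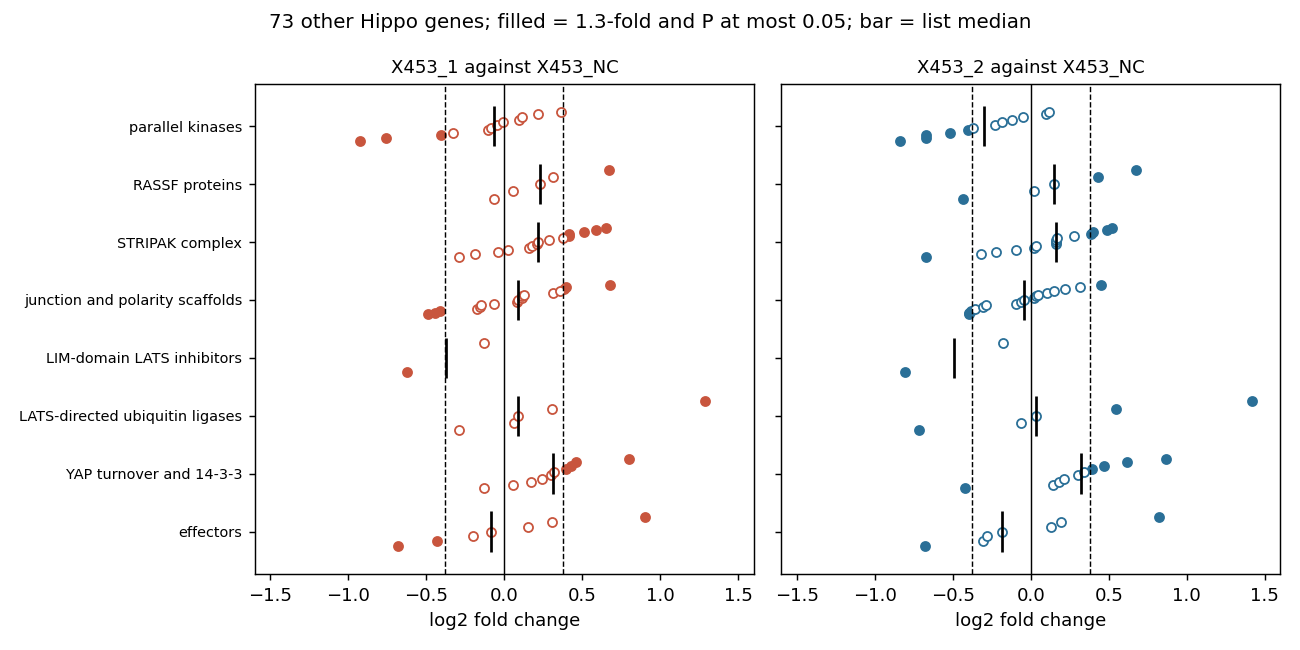
Log2 fold change (horizontal axes) of the 73 other Hippo genes in X453_1 and in X453_2 against X453_NC, by role (vertical axis). Each point is 1 gene, filled where it met the study's criteria, black bars are group medians and dashed lines mark 1.3-fold. WWTR1, DCAF1 and YWHAG lie far to the right, and STK25 and MOB2 far to the left, in both panels.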

How the data were processed

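The submitters' processing notes name Bowtie2 version 2 and GRCh37.p13, and the counting tool and its use of strand are not given in the sources used here. RNA was sequenced on the BGISEQ-500, and the authors deposited FPKM per gene and library, rounded, in 1 table of 19930 genes. Deposited columns with the authors' own ratios and P values between groups were not used. Labels gave 3 groups of 3 libraries. The labels do not say whether these came from separate cultures, and the study speaks of independent experiments in general without naming the sequenced libraries, so P values measure only the spread between libraries, which may be technical.

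The 12884 genes whose mean reached 1 FPKM were tested on log2(FPKM + 1) with limma 3.58.1 in R 4.3.3 (lmFit, eBayes with trend, all 9 libraries in 1 fit, group as the only term), with Benjamini-Hochberg adjustment over all tested genes. Fold changes are on that scale and understate changes of low genes. The 10 genes, the pathway lists and the alternatives were chosen with earlier results of these data known. Genes named are all 10, and of each other list up to 3 with the largest mean change among those past the study's criteria in the same direction in both groups, plus YAP1, chosen after its values were seen. Ratios of paralogs were compared by exact permutation with the knockdown groups pooled, since 3 against 3 libraries cannot give P under 0.1. Depth was inferred from the smallest steps by which FPKM of weakly expressed genes differ. GC correction removed a spline (5 degrees of freedom) of transcript GC content, known for 86.85% of tested genes, from each library. Sequences came from GENCODE release 29 and RefSeq. Code was tested on simulated data. A further marker of the line is not reported here. Correlations between libraries with the same suffix were -0.239 to 0.104, so the suffixes were not treated as pairs.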

Additional observations from a re-analysis of the deposited data

Results flagged for a closer look

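For 7 of the 10 genes the effects of the knockdown groups differed by limma's test of X453_2 against X453_1 (adjusted P of at most 0.05), which is the difference between their log2 fold changes against the shared control. That difference was -0.33 for WWC1 (adjusted P = 6.88e-04), -0.23 for MOB1A (0.00252), -0.20 for TAOK1 (0.0333), -0.16 for STK3 (0.0145), -0.15 for NF2 (0.0445), -0.15 for LATS2 (0.0352) and -0.13 for SAV1 (0.0158). All 7 were lower in X453_2, where 33.9% of tested genes were lower by the same rule. After scaling by the median ratio WWC1 and MOB1A remained past the threshold and the other 5 did not. The cause was not tested.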

How the results depend on the processing

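Counts of the 10 genes that met the study's criteria stayed at 0 in every comparison with each library left out (lowest 0, highest 0). With no fold limit and an adjusted P they were 7, 5 and 7 for X453_1 against X453_NC, X453_2 against X453_NC and X453_2 against X453_1. By that rule 32.1% of all tested genes were higher and 32.3% lower in the first comparison. The shares were 26% and 44.8% in the second, and 10.2% and 33.9% in the third. By the study's criteria with 0.1 FPKM added, the count for X453_2 against X453_1 was 1 (WWC1). The suffixes do not pair the libraries. A replicate block left all 3 counts at 0, and by adjusted P alone gave 6 higher and 0 lower, 2 higher and 2 lower, and 0 higher and 4 lower genes. Shares over all tested genes in the block fit are not given here.

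Under the alternatives 532 log2 fold changes kept their direction and side of the study's criteria, and 12 changed sign. A further 20 were called that had not been. Of these WWC1 with 0.1 FPKM added met those criteria, and the rest were called by adjusted P with no fold limit. Much of the agreement was fixed in advance. Filters on low values, other P or fold rules, fits of only the 2 groups compared and a replicate block cannot move these values. Nor can leaving out a library outside the comparison (STK3 in X453_1 against X453_NC stayed at 0.2216). No gene of the 10 met the criteria in the main fit, so stricter rules could only leave it uncalled. The total of 532 is thus not a measure of stability. Scaling by the median ratio gave 0.0595 for MOB1B and 0.0255 for WWC1 in X453_2 against X453_NC, and 0.0695 for STK4, 0.0017 for LATS1 and 0.0374 for MOB1B in X453_2 against X453_1. GC correction gave -0.0127 for MOB1A and -0.11 for MOB1B in X453_1 against X453_NC, -0.0133 for LATS2 in X453_2 against X453_NC, and 0.00065 for STK4 and 0.0215 for MOB1B in X453_2 against X453_1. With 1 library left out MOB1B gave -0.0038 to 0.0648 in X453_1 (lowest without the unsuffixed control library) and -0.0541 to 0.0145 in X453_2 (highest without control r1). The ratio of LATS2 to LATS1 was -0.13 (exact P = 0.0357) with 1 FPKM added and -0.146 to -0.0863 with 1 library left out, that of MOB1B to MOB1A was -0.0337 to 0.0312, and that of STK4 to STK3 was 0.0109 to 0.0829. Counts of other pathway genes for X453_2 against X453_1, 4 as reported, were 2 after GC correction and 2 to 10 with 1 library left out. They were 23 to 25 for X453_1 and 26 to 28 for X453_2 against X453_NC. The causes were not tested. At 375 to 5215 fragments per gene and library, counting error was at most 5.16%.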
